A study of Mus musculus with 16 samples.

Results

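The 10 genes described here, Fos, Fosb, Jun, Junb, Atf3, Egr1, Klf6, Nr4a1, Ier2 and Dusp1, are immediate early genes that tissue dissociation also induces. They were taken by name from the 54146 genes listed for each islet RNA-seq library. The rule uses names and no threshold on these values, but earlier results of these data were known when the genes were chosen. All 10 passed the filters on low counts and low variance, which left 15152 protein-coding genes for testing. Immediate early genes are switched on within minutes of a stimulus by transcription factors already present in the cell, such as serum response factor (SRF) and cAMP-response-element-binding protein (CREB), and need no newly made protein. Their mRNAs are short-lived, so their levels follow the recent history of the cell. In beta cells glucose, calcium and cyclic AMP induce several of them, and the enzymatic digestion and handling used to isolate islets from the pancreas are known to do so as well.

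Gene expression was measured by mRNA sequencing of whole islets from 26-week-old mice of the 8 strains that founded the Diversity Outbred population, and every mouse had received a high-fat diet, so there was no group on another diet. The 91 libraries fall into 16 labelled samples, each of 1 strain and 1 sex. The strains are 129S1_SvImJ (129 hereafter) with 5 female and 5 male libraries, A_J (AJ) with 7 and 7, C57BL/6J (B6) with 9 and 9, CAST_EiJ (CAST) with 6 and 8, NOD_ShiLtJ (NOD) with 5 and 5, NZO_HlLtJ (NZO) with 3 and 1, PWK_PhJ (PWK) with 1 and 4, and WSB_EiJ (WSB) with 9 and 7. Nothing in the labels says that each library came from a separate mouse, so the p-values below measure the spread between libraries. How the islets were isolated and how long they were kept before RNA extraction are not given in the sources used here.

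The libraries held between 16928479 and 35196119 expected counts in total. The summed level of 8 beta-cell markers, median 449454 TPM (transcript level scaled to the same sum in each library), matched the label of islet tissue, while acinar markers from the exocrine pancreas summed to between 1951 and 357494 TPM. In NOD, a strain prone to autoimmune infiltration of the islets, macrophage and lymphocyte markers had medians of 524 and 205 TPM, against 66.05 and 9.61 TPM over all libraries. Levels of Xist and Y-linked genes went against the sex label in 12 libraries (6 of 129, 2 of NOD and 4 of WSB), and results on sex are given with and without them. Each library also carries a running number. Numbers 1 to 32 and 34 to 65 each hold 31 libraries of AJ, B6, CAST and WSB, whereas numbers 66 to 100 hold all libraries of 129, NOD, NZO and PWK, for which number range and strain cannot be told apart. The labels name 4 waves of animals, with the libraries of the last wave built at another centre, but do not tie a library to a wave, so the number is used here only as a number.

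All 10 genes were abundant transcripts of these islets. TPM is a level per transcript length, which allows genes to be compared. Fos, a leucine-zipper protein that pairs with Jun proteins to form the AP-1 transcription factor, averaged 1274 TPM ± 499.7 (SD, n = 91) and ranked 45 among 21906 protein-coding genes. Egr1, a zinc-finger activator of growth and stress responses, followed at 986 TPM ± 344. The AP-1 subunits Fosb, Junb and Jun had means of 675 ± 296, 660.4 ± 311 and 484 ± 198 TPM. The levels of Nr4a1, a nuclear receptor that acts without a known ligand, and of Dusp1, a phosphatase that switches off MAP kinases, were close to each other at 299 ± 197 and 287 ± 146 TPM. Ier2, a nuclear protein of the early response, and Atf3, a stress-induced leucine-zipper repressor, had 243 ± 93 and 207 ± 144 TPM. Klf6, a zinc-finger factor of the Krüppel-like family, was the least abundant at 37.2 TPM ± 22.4 and ranked 1860.

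The levels of these genes differed widely from library to library. The highest library exceeded the lowest 7.01-fold for Ier2, 8.16-fold for Fos, 24.8-fold for Nr4a1 and 42.8-fold for Atf3. Together the 10 genes took between 0.147% of all TPM, in a male CAST library, and 0.944%, in a male AJ library, and all 10 had at least 608 expected counts in every library, so that counting error was small beside these ranges. The lowest library for Fosb, Jun, Junb, Egr1 and Nr4a1 was the same male CAST library, and the highest for Fos, Fosb, Jun and Dusp1 was the same male PWK library. After the means of the labelled samples were removed, the SD between libraries was 0.63 on the log2 scale as the median of the 10 genes, from 0.48 for Ier2 to 1.11 for Atf3. With number range means also removed, in AJ, B6, CAST and WSB, the median was 0.41, and the 10 genes ran from 0.30 to 0.61. The SDs over all 8 strains stood at percentiles 76 to 97.8 of all genes tested. The SD differed between strains, with a median of 0.13 in the 3 female NZO libraries, 0.43 in WSB and 0.75 in the 4 male PWK libraries. In this bulk RNA, more induction per cell and more responding cells cannot be told apart.

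**Figure D1:**
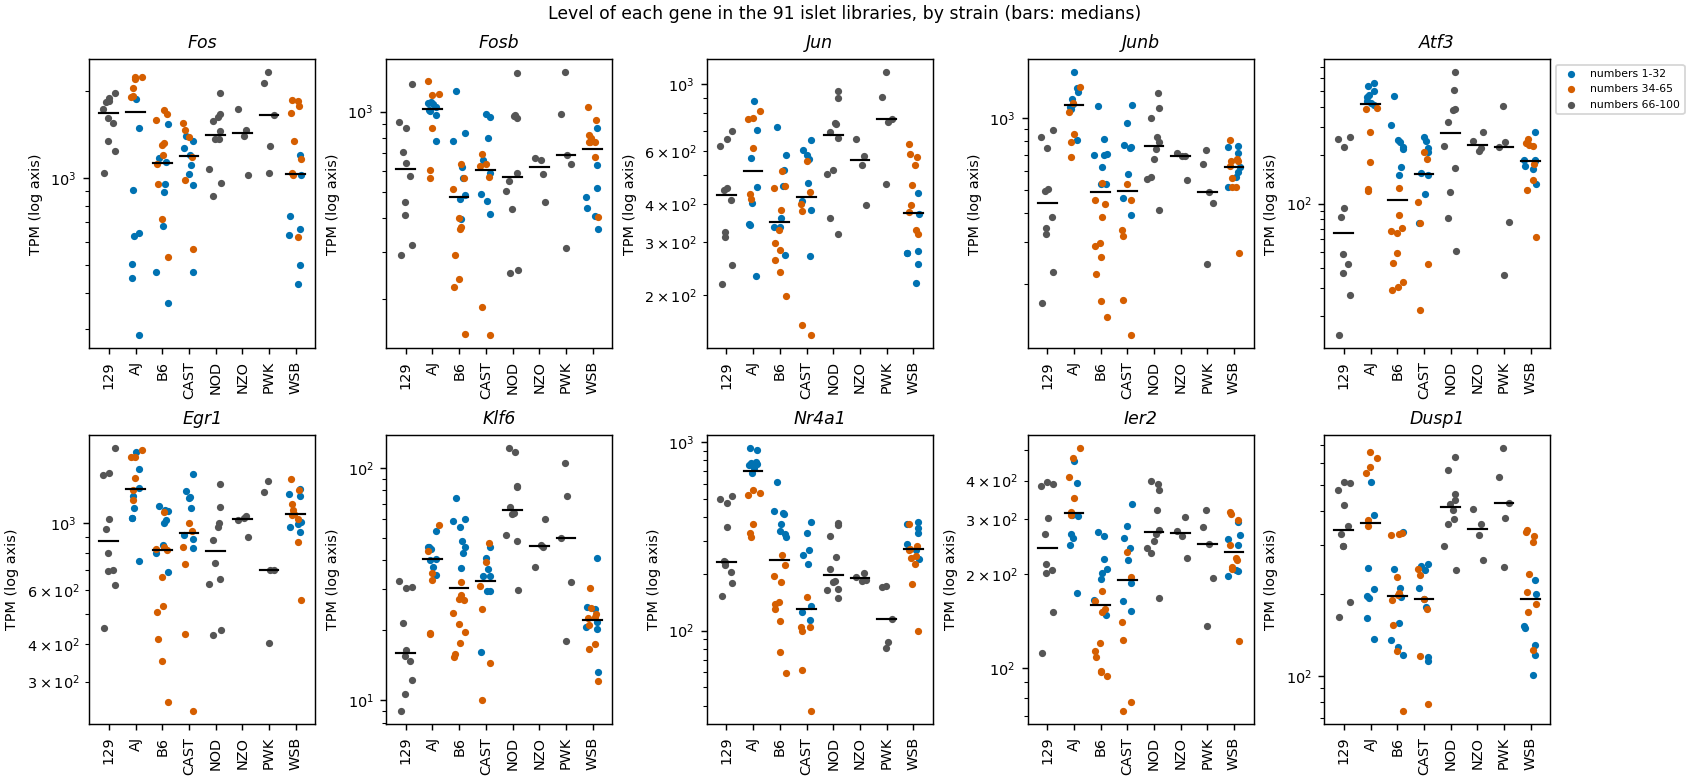
Level of each gene in TPM (log axis) in the 91 islet libraries, by strain, with 1 point per library, coloured by running number, and a bar at the median of each strain. The 8 AJ libraries numbered 1 to 32 lie at 684 TPM or above for Nr4a1, and the 4 NZO libraries lie between 183 and 202 TPM for that gene.

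The promoters of Fos, Dusp1, Nr4a1 and Atf3 are shown because these genes moved apart between libraries in the comparisons below. They are RefSeq windows of the reference genome (GRCm38.p6), from 250 bases before to 50 bases after the transcription start, and not sequences of the strains studied. Those of Dusp1, Nr4a1 and Atf3 lie inside the annotated span of the gene, away from its first base, and windows of other starts were not used. The windows lie at chr12:85473640-85473939, plus strand (Fos), chr17:26508423-26508722, minus strand (Dusp1), chr15:101266596-101266895, plus strand (Nr4a1) and chr1:191183284-191183583, minus strand (Atf3). Capitals mark the core of the cAMP response element, TGACG or CGTCA on the other strand, and in Dusp1 also the full palindromic element that contains both.
Fos: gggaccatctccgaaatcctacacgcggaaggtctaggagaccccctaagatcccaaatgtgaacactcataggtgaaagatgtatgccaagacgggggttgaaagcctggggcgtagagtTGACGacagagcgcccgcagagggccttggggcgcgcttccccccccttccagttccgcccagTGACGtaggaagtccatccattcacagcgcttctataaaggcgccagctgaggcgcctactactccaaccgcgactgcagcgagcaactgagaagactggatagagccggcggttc
Dusp1: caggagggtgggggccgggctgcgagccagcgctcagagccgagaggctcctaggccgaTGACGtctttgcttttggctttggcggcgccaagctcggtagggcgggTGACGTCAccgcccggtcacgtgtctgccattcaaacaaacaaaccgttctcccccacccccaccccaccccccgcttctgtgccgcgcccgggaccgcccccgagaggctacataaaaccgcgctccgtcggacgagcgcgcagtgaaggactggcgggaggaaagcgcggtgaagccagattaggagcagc
Nr4a1: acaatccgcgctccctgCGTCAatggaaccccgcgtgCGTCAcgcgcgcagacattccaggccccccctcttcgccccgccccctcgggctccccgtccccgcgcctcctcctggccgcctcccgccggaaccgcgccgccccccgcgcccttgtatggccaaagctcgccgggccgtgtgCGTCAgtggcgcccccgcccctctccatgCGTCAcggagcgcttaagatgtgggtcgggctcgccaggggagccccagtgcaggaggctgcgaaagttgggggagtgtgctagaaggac
Atf3: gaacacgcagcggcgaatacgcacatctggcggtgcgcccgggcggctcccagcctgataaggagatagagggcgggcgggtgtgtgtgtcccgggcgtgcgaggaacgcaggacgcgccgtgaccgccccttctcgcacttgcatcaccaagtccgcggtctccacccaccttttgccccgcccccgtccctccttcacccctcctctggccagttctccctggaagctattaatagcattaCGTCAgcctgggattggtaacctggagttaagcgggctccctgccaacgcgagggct
The core occurred 2 times in the Fos window, 3 times in that of Dusp1, where 2 of the matches overlap in the full element, 4 times in that of Nr4a1 and 1 time in that of Atf3. Windows were at hand for 8 of the 10 genes, and the core was found on either strand in 6 of them, also in Fosb and Junb but not in Jun or Klf6. Of all 32851 RefSeq windows of the same length, 20.8% hold it. The full element TGACGTCA was found in Dusp1 alone of the 8, against 1.79% of all windows. The AP-1 site TGANTCA, which 7.81% of windows hold, and the CArG box bound by SRF, which 1.63% hold, were in none of the 8. The EGR site GCGNGGGCG was in Fosb and Nr4a1 (5.55% of windows), and the TATA box TATAAA in Fos and Junb (13.6%). Counted from the start, these TATA letters began at base -33 in Fos but at base 1 in Junb. A match is a description of these letters only, and no match says nothing of elements outside the window.

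Strain was compared next, to ask which of the 10 genes varied with the genetic background. Tested by libraries, all but Fos differed between strains, with the levels of AJ and NOD most often on the high side and those of B6 and 129 most often on the low side. Fosb, Jun, Egr1 and Ier2 lost their call when each labelled sample counted once, as given below. The clearest single case was Nr4a1, which was higher in AJ than in every other strain. Against 129, NOD, NZO and PWK that difference cannot be told apart from number range. By the quasi-likelihood test of edgeR, with p-values adjusted over all genes tested by the method of Benjamini and Hochberg, 9 of the 10 genes were called for strain (adjusted p under 0.05), which is close to the 97.4% of all genes. In the 28 pairs of strains, 75 of 280 tests of the 10 genes were called, against 213505 of 424256 tests (50.3%) over all genes. The 10 genes were thus called in a smaller share of pair tests than genes at large. AJ was the higher strain in 25 of its 70 tests and NOD in 24, whereas B6 was the lower strain in 19 and 129 in 17. Strains below are named in the order of their mean normalised counts (counts scaled by upper quartiles), and values are mean TPM ± SD with the numbers of libraries given above. Of the 70 pairs of neighbours in these orders 2 were called, so most neighbours did not differ beyond their spread.

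Among the AP-1 subunits, Fos (ENSMUSG00000021250.13, chromosome 12 of GRCm38, 85473890 to 85477273) had no called difference between strains. Its levels were 1687 ± 543 in PWK, 1390.4 ± 344 in NOD, 1604 ± 309 in 129 and 1402 ± 292 in NZO, followed by 1134 ± 318 in CAST, 1379 ± 762 in AJ, 1094 ± 488 in WSB and 1072 ± 410.3 in B6. The lowest, median and highest libraries were 284, 1685 and 2230.4 TPM in AJ and 369, 1125 and 1710.5 TPM in B6, so the strains overlapped widely and the range within AJ exceeded any difference between strain means. Fos was not called for strain (edgeR adjusted p = 0.541) or in any of its 28 pairs. Fosb (ENSMUSG00000003545.3, chromosome 7, 19302696 to 19310051), a close relative of Fos that also pairs with Jun proteins, was 979 ± 208 in AJ, 685 ± 368 in NOD, 804 ± 410.5 in PWK and 668 ± 209.6 in WSB, followed by 587 ± 243 in CAST, 595 ± 96.8 in NZO, 646 ± 306 in 129 and 506 ± 252 in B6. The Fosb strain effect was barely past the threshold (edgeR adjusted p = 0.0466) and not past it without NZO replicate 4 (0.0545) or without PWK replicate 1 (0.0504).

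Jun and Junb were called for strain with different strains on top. Jun (ENSMUSG00000052684.4, chromosome 4, 95049034 to 95052222), the main partner of Fos, had 797 ± 230.2 in PWK, 639 ± 211 in NOD, 543 ± 109.7 in NZO and 553 ± 206 in AJ, followed by 429.7 ± 158 in CAST, 396 ± 130.4 in WSB, 389 ± 136 in B6 and 439 ± 171 in 129 (edgeR adjusted p = 0.000322). PWK and NOD were each higher than 5 other strains, but for PWK this fell to 3 without PWK replicate 4 or without PWK replicate 5. Jun was not called in AJ, B6, CAST and WSB alone (edgeR adjusted p = 0.280), and all libraries of PWK and NOD lie in the numbers 66 to 100. Junb (ENSMUSG00000052837.6, chromosome 8, 84974484 to 84978718), a partner that restrains some Jun targets, had a different order. Its levels were 1107 ± 249 in AJ, 797 ± 267 in NOD, 615 ± 129 in WSB and 664 ± 76.3 in NZO, followed by 553 ± 291 in CAST, 496 ± 256 in B6, 510.2 ± 190.1 in PWK and 492 ± 254 in 129 (edgeR adjusted p = 2.98e-05). AJ was higher than 5 other strains, with 686, 1135 and 1564 TPM as the lowest, median and highest library against 167, 439 and 891 in 129. Atf3 (ENSMUSG00000026628.13, chromosome 1, 191170296 to 191218039) had 376 ± 145 in AJ, 289.6 ± 197 in NOD, 239 ± 30.1 in NZO and 187 ± 56.4 in WSB, followed by 196 ± 145 in PWK, 148 ± 76.8 in CAST, 146 ± 119 in B6 and 108 ± 97.7 in 129 (edgeR adjusted p = 0.000965). Its libraries spanned 120.3, 414 and 561 TPM (lowest, median, highest) in AJ and 15.3, 65.6 and 258 in 129, and these ranges overlapped. Part of the reads of Jun and Junb were shared with other genes in the authors' counting, since their expected counts were not whole in 85 and 44 libraries, and Prdx2 on the other strand overlaps Junb at a mean of 72.9 TPM, so their levels are less certain.

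Among the zinc-finger factors and the nuclear receptor, Klf6 and Nr4a1 were called in 15 and 12 of the 28 pairs of strains and Egr1 in 2. Egr1 (ENSMUSG00000038418.7, chromosome 18, 34859823 to 34864984) had 1334 ± 298 in AJ, 1077 ± 203 in WSB, 936 ± 327 in CAST and 1009 ± 72.9 in NZO, followed by 823 ± 299 in NOD, 995 ± 432 in 129, 891 ± 418 in PWK and 778 ± 277 in B6 (edgeR adjusted p = 0.0314). Only AJ and WSB were called higher than another strain, and that was B6 in both cases. Klf6 (ENSMUSG00000000078.7, chromosome 13, 5861482 to 5870394) had 73 ± 29.3 in NOD, 56.1 ± 34.8 in PWK, 47.5 ± 9.39 in NZO and 36.3 ± 17.7 in B6, followed by 39.3 ± 10.8 in AJ, 31 ± 11.4 in CAST, 22.4 ± 6.79 in WSB and 19.4 ± 8.88 in 129 (edgeR adjusted p = 2.3e-09). The NOD libraries ran from 29.9 to 122 TPM with a median of 65.9, and those of 129 from 8.99 to 32.6 with a median of 15.97, so that the groups overlapped only narrowly. WSB and 129 were each lower than 6 strains, and the step from CAST to WSB was 1 of the 2 between neighbours that was called (log2 difference 0.57, edgeR adjusted p = 0.0361). Nr4a1 (ENSMUSG00000023034.7, chromosome 15, 101254269 to 101274795) had 638 ± 203 in AJ, 275 ± 74.2 in WSB, 263 ± 149 in B6 and 306 ± 141 in 129, followed by 235 ± 84.9 in NOD, 191 ± 8.4 in NZO, 169.9 ± 102 in CAST and 125 ± 44 in PWK (edgeR adjusted p = 4.71e-09). Its lowest, median and highest libraries were 313, 704 and 930.2 TPM in AJ, 99.3, 270.4 and 377 in WSB and 80.7, 115 and 171 in PWK. No AJ library fell into the range of PWK or NZO, while AJ overlapped the other 5 strains. The normalised count of AJ was 1.99-fold that of WSB, the next strain (log2 difference 0.99, SE 0.26, edgeR adjusted p = 0.000846), and 5.63-fold that of PWK (log2 2.49, SE 0.43, edgeR adjusted p = 8.96e-07). AJ was higher than 6 of the other 7 strains without the 12 libraries that go against their sex label or with lymphocyte and macrophage scores as covariates. PWK was in turn lower than 5 strains.

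The 2 remaining genes were high in NOD by normalised counts. Ier2 (ENSMUSG00000053560.4, chromosome 8, 84661331 to 84662852) had 293 ± 75.7 in NOD, 343 ± 96.1 in AJ, 268 ± 33 in NZO and 240.4 ± 51.2 in WSB, followed by 263 ± 103 in 129, 237 ± 73.2 in PWK, 193 ± 77.1 in CAST and 164 ± 55.6 in B6 (edgeR adjusted p = 0.000225). B6 was lower than 3 strains and CAST lower than 2. Dusp1 (ENSMUSG00000024190.6, chromosome 17, 26505590 to 26562128) had 419.8 ± 115 in NOD, 455 ± 162 in PWK, 340.3 ± 59.7 in NZO and 369.9 ± 185 in AJ, followed by 355 ± 124 in 129, 206 ± 81.5 in WSB, 205 ± 82 in B6 and 186 ± 59 in CAST (edgeR adjusted p = 6.36e-07). The lowest, median and highest libraries were 244, 415 and 629.9 TPM in NOD and 79, 191 and 257 TPM in CAST, which overlapped by little. NOD was higher than 4 strains and B6 and CAST each lower than 4. The annotated span of Dusp1 overlaps Ergic1 on the other strand, with a mean of 41.02 TPM, and the strand setting of the counting is not given in the sources used here.

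When the libraries of each labelled sample were summed, so that each sample counted once, 5 of the 10 genes were called for strain, namely Junb, Atf3, Nr4a1, Dusp1 and Klf6, against 84.3% of all genes. Which strain was highest depended on the scale for 2 genes, since by TPM Ier2 was highest in AJ and Dusp1 in PWK. Jun was highest in NOD when medians took the place of means. Marker levels moved with some of these orders. AJ, highest for 5 of the 10 genes, had the lowest median of summed acinar markers at 6521 TPM against 60455 over all libraries, and NOD, highest for 3, had the high immune-cell markers given above. Their part in the strain differences was not tested beyond fits with marker scores as covariates, in which 9 of the 10 genes were still called for strain.

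Sex was compared as the other factor of the design. None of the 10 genes differed between male and female libraries, against 4.01% of all genes called (608, edgeR quasi-likelihood test), none had an unadjusted p under 0.05, and none was called by limma-voom or DESeq2. The largest difference was in Jun at -0.15 (SE 0.11) on the log2 scale, male minus female. Whether the sexes differed by different amounts in different strains was tested over the 82 libraries of 129, AJ, B6, CAST, NOD and WSB. None of the 10 genes was called, against 5.93% of all genes, with the smallest edgeR adjusted p of 0.0739 for Egr1 and 0.0771 for Ier2. DESeq2 called 2 of the 10 (Egr1 and Ier2) and 1169 of all 15152 genes.

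Without the 12 libraries that go against their sex label, 0 of the 10 genes differed between the sexes over all strains by edgeR, and 0 had an unadjusted p under 0.05 (1489 of all genes were called), but the interaction of strain and sex was called for 6 of the 10, against 17.7% of all genes. The edgeR adjusted p was 0.00186 for Egr1, 0.00448 for Ier2, 0.0121 for Jun and Fosb, 0.0177 for Klf6 and 0.0491 for Atf3. In CAST, where no library was left out, the 6 female libraries had 939.8, 1217 and 1456 TPM of Egr1 as lowest, median and highest and the 8 male libraries 240.1, 830.0 and 1125. In NOD, with 4 libraries of each sex left, the female values were 445, 697 and 1129 TPM and the male values 631, 988 and 1352. The sexes overlapped in both strains. The difference of male minus female in mean log2(TPM + 1) was -0.78 in CAST and 0.44 in NOD, and in log2(normalised count + 1) it was -0.81 and 1.18. The size of the NOD difference therefore moved with the scaling. Atf3 had the same signs, with -1.03 in CAST and 1.54 in NOD by TPM and -1.08 and 2.29 by normalised counts. This comparison left only 2 libraries of each sex in 129.

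Markers of other cell types moved with the interaction of strain and sex. With all 82 libraries it was called for 13 of the 13 acinar markers tested, 4 of 7 lymphocyte, 3 of 7 endothelial, 3 of 7 ductal and 0 of 8 macrophage markers. Without the 12 libraries it was called for 13 of 13 acinar, 7 of 7 lymphocyte, 7 of 8 macrophage, 4 of 7 endothelial and 3 of 7 ductal markers. In NOD the summed acinar markers then had a median of 69641 TPM in females and 278040 TPM in males, and in CAST 158024 and 106681 TPM. In fits added after the data were seen, also without the 12 libraries, the Egr1 interaction had an edgeR adjusted p of 0.00358 with an acinar score as a covariate, the Fosb interaction 0.0198, the Ier2 interaction 0.0221 and the Jun interaction 0.0282. The Klf6 interaction (0.239) and the Atf3 interaction (0.198) were no longer called. With lymphocyte and macrophage scores as covariates 0 of the 10 genes were called by edgeR and 4 had an unadjusted p under 0.05, the lowest adjusted p being 0.179 for the Egr1 interaction, and 9 of all genes were.

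Number range was compared within the 4 strains that had both ranges, as the only other grouping of the libraries at hand. Fos and Dusp1 were higher in the libraries numbered 34 to 65 than in those numbered 1 to 32, and Nr4a1, Atf3, Junb and Klf6 were lower. Genes of 1 response thus moved in opposite directions. In the 62 libraries, with strain and sex in the model, the log2 difference of 34 to 65 minus 1 to 32 was 0.74 for Fos (SE 0.13, edgeR adjusted p = 5.52e-06) and 0.45 for Dusp1 (SE 0.12, edgeR adjusted p = 0.00169). It was -1.07 for Nr4a1 (SE 0.13, edgeR adjusted p = 9.19e-10), -0.90 for Atf3 (SE 0.20, 0.000224), -0.63 for Junb (SE 0.12, 1.65e-05) and -0.44 for Klf6 (SE 0.14, 0.00921). Within single strains Klf6 was called in B6 alone, with uncalled values of -0.41 in AJ, 0.032 in CAST and -0.089 in WSB. Fosb, Jun, Egr1 and Ier2 had values from -0.22 to 0.11 and were not called, although Egr1 was called under TMM scaling (-0.25, edgeR adjusted p = 0.0414). Thus 2 of the 10 genes were higher, against 28.8% of all genes, and 4 were lower, against 15.6%. Under TMM scaling the shares of all genes were 22.6% and 21.9%, and the median difference over all genes moved from 0.045 to 0.0089. The medians for 1 to 32 and 34 to 65 were 27485274 and 28628555 expected counts in total, 1.86% and 1.88% mitochondrial TPM, 73885 and 58779 TPM of acinar markers and 59.1 and 64.1 TPM of macrophage markers. Single marker genes moved as well, with 3 of 5 alpha-cell, 4 of 8 macrophage, 3 of 7 lymphocyte, 3 of 8 stellate and 2 of 2 neutrophil markers tested called higher in 34 to 65. None of these lists had a marker called lower, but 1 beta-cell, 1 ductal and 1 Schwann-cell marker were. The summed alpha-cell markers had medians of 16015 TPM in 1 to 32 and 13434 TPM in 34 to 65, and the summed lymphocyte markers 9.34 and 7.69 TPM. Sums thus moved against these single genes. The neutrophil markers were near the floor, with a median sum of 0.9 TPM over all libraries. The median log2 difference was 0.50 for the alpha-cell markers, 0.50 for the acinar markers (2 of 13 called), 0.47 for the lymphocyte markers and 0.17 for the macrophage markers. With an acinar score as covariate 6 of the 10 genes were called for number range, against 6946 of all 15152 genes. With lymphocyte and macrophage scores 7 were, against 6433 of all genes. The part of the other cell types was not tested.

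The differences between number ranges were not of the same size in the 4 strains. In AJ the 8 libraries numbered 1 to 32 had 284, 634 and 1878 TPM of Fos as lowest, median and highest, and the 6 libraries numbered 34 to 65 had 1910, 2119 and 2230. These ranges did not overlap. Nr4a1 in the same AJ libraries had 684, 768 and 930.2 TPM in 1 to 32 and 313, 446 and 556 in 34 to 65, again without overlap but in the opposite order. In AJ the log2 differences were 1.31 for Fos (SE 0.26, edgeR adjusted p = 0.000147), 0.95 for Dusp1 (SE 0.24, 0.00177), -1.08 for Nr4a1 (SE 0.25, 0.000724) and -1.02 for Atf3 (SE 0.36, 0.035). These were 4 of the 10 genes in AJ, where 22.4% of all genes were called.

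In B6 the values of Atf3 and Nr4a1 did not overlap between the ranges. Atf3 had 150.8, 232 and 468 TPM in the 8 libraries numbered 1 to 32 and 29.1, 57.5 and 125 TPM in the 10 numbered 34 to 65. Nr4a1 had 314, 391 and 612 TPM against 59.6, 139 and 251. In B6 the log2 differences were -2.01 for Atf3 (SE 0.32, edgeR adjusted p = 2.19e-06), -1.64 for Nr4a1 (SE 0.21, 6.21e-08), -1.14 for Junb (SE 0.20, 1.16e-05) and -1.14 for Klf6 (SE 0.24, 0.000242). Fosb at -0.82, Ier2 at -0.65 and Egr1 at -0.61 were called lower as well, which made 7 of the 10 genes against 27.5% of all genes. Fos was not among them, at 0.47 (SE 0.23, edgeR adjusted p = 0.134).

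In CAST 2 of the 10 genes were called, against 10.3% of all genes. Nr4a1 was lower by a log2 difference of -1.05 (SE 0.25, edgeR adjusted p = 0.00482) and Junb by -0.86 (SE 0.23, 0.012), with Nr4a1 at 114, 238 and 377 TPM in the 8 libraries numbered 1 to 32 and 37.5, 102 and 150.3 in the 6 numbered 34 to 65. In WSB 3 of the 10 were called, all higher in 34 to 65, against 14.1% of all genes called in either direction. They were Fos at 0.86 (SE 0.25, edgeR adjusted p = 0.0143), Dusp1 at 0.66 (SE 0.22, 0.0378) and Jun at 0.65 (SE 0.21, 0.0315). Fos in WSB had 427, 666 and 1197 TPM in the 7 libraries numbered 1 to 32 and 622, 1337 and 1855 in the 9 numbered 34 to 65, and the ranges overlapped. The signs of the fitted differences for Fos, Dusp1, Nr4a1 and Junb were the same in all 4 strains, although for Dusp1 in CAST the fitted value was 0.067 (SE 0.24) and the mean was 195 TPM in 1 to 32 and 174 TPM in 34 to 65. The test that the 4 differences were unequal called 5 of the 10 genes (Fosb, Junb, Ier2, Atf3 and Nr4a1), against 6.96% of all genes, and called Ier2 and Atf3 alone without the libraries that go against their sex label.

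**Figure D2:**
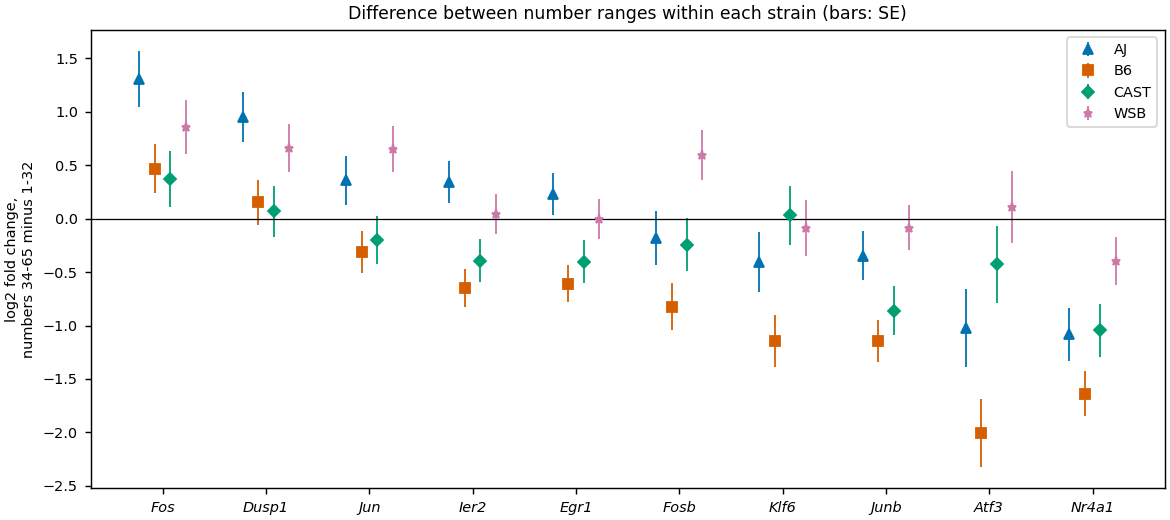
Fitted log2 fold change of libraries numbered 34 to 65 minus those numbered 1 to 32 for each gene within AJ, B6, CAST and WSB, with bars of 1 SE. Fos and Dusp1 lie above 0 and Nr4a1 and Junb below 0 in all 4 strains, and Atf3 runs from -2.01 in B6 to 0.11 in WSB.

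The ratio of Fos to Nr4a1, the 2 genes with the largest differences in opposite directions, restates those differences library by library. Over all 91 libraries its median was 5.83 in TPM, from 0.366 to 15.9. Fos was below Nr4a1 in 5 libraries, and all 5 were AJ libraries numbered 1 to 32, where the median ratio was 0.805. The medians of 1 to 32 and 34 to 65 were 0.805 and 4.98 in AJ, 2.14 and 8.34 in B6, 4.71 and 14.8 in CAST, and 1.76 and 6.34 in WSB. The ratios of the 2 ranges did not overlap in AJ, with 0.366 to 2.59 against 3.64 to 6.20, or in B6, with 1.10 to 4.87 against 6.82 to 10.6. They overlapped in CAST, with 3.14 to 10.1 against 9.19 to 15.9, and in WSB, with 1.42 to 4.26 against 2.49 to 11.7. PWK stood highest among the strains numbered 66 to 100, with a median of 13.5.

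The higher Nr4a1 of AJ was also found in a model with the number range as a term. In the fit of AJ, B6, CAST and WSB with number range as a covariate, AJ was still called higher for Nr4a1 than each of the other 3 strains. The AJ libraries numbered 34 to 65, at 313 to 556 TPM, overlapped those of WSB in the same range, at 99.3 to 368 TPM, and lay above those of B6 (59.6 to 251) and CAST (37.5 to 150.3).

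Covariation of the 10 genes was examined next, to ask whether they varied as 1 group from library to library. Within strain and sex most pairs varied together, but the pairs of Fos with Nr4a1, Klf6, Atf3 and Junb were not called. Over 89 libraries, after the mean of each labelled sample was removed on the scale of log2(normalised count + 1), 40 of the 45 pairs were positively correlated by Pearson r and 39 by Spearman rho in a permutation test within labelled samples (100000 permutations, two-sided, Benjamini-Hochberg over the 45 pairs). The highest were Atf3 with Klf6 (Pearson r = 0.92, Spearman rho = 0.91), Junb with Atf3 (r = 0.91, rho = 0.89), Egr1 with Ier2 (r = 0.91, rho = 0.91) and Fos with Dusp1 (r = 0.89, rho = 0.90). Each of these had a permutation p of 1e-05 for r and for rho, the smallest these permutations can give, and an adjusted permutation p of 1.32e-05 for r and 1.36e-05 for rho. Without the 2 libraries farthest from the median of the first gene, r was 0.92, 0.90, 0.89 and 0.88 for these 4 pairs. For scale, the median r of a member with all other genes tested ran from -0.079 for Nr4a1 to 0.053 for Fos. The share of those genes with r above 0.5 ran from 0.70% for Dusp1 to 5.83% for Fos. How many pairs of other genes such a test would call was not examined.

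The number of pairs called by r was 38 on log2(TPM + 1), without the libraries that go against their sex label, and with number range means removed, and 39 without NOD. Of the 40 pairs, Dusp1 with Klf6, Dusp1 with Atf3 and Fos with Fosb lost their call under at least 1 of these settings. Dusp1 with Klf6 had r = 0.26 (adjusted permutation p = 0.0338) and was not called by rho (0.18, adjusted permutation p = 0.138). Atf3 with Dusp1 had r = 0.35 (adjusted permutation p = 0.00437) and rho = 0.25 (0.0462). The adjusted permutation p for r of Dusp1 with Klf6 and of Atf3 with Dusp1 was 0.142 and 0.0576 on log2(TPM + 1), 0.379 and 0.324 without the libraries that go against their sex label, 0.181 and 0.0704 without NOD, and 0.728 and 0.186 with number range means removed. Fos with Fosb had r = 0.35 (adjusted permutation p = 0.00139), with 0.133 without the libraries that go against their sex label and 0.119 with number range means removed. The 5 pairs that were not called by r all held Fos or Dusp1. Fos with Nr4a1 had r = -0.17 (permutation p = 0.131, adjusted 0.144; rho = -0.17, permutation p = 0.116, adjusted 0.131), and r = -0.22 without the 2 farthest libraries. The value for Fos was -0.03 with Klf6, 0.04 with Atf3 and 0.14 with Junb, and Nr4a1 with Dusp1 gave 0.15, with adjusted permutation p from 0.187 to 0.784. Without the libraries that go against their sex label, Fos with Nr4a1 reached r = -0.34 (adjusted permutation p = 0.00653), and without NOD it was -0.28 (0.0165). With number range means also removed, in the 62 libraries of AJ, B6, CAST and WSB, it was 0.076 (adjusted permutation p = 0.564), a setting that also leaves out the other 4 strains. Within single groups of strain and range, Fos with Nr4a1 ran from -0.66 in AJ numbered 1 to 32 to 0.96 in CAST numbered 34 to 65. With number range means removed, Fos with Dusp1 had r = 0.85, and Fos with Junb was called (r = 0.29, adjusted permutation p = 0.0309; rho = 0.37, adjusted permutation p = 0.00985). The first principal component of the 10 genes held 73.2% of the variance of these residuals, with all loadings positive and the lowest for Fos (0.081). The second held 19.1%, with loadings of 0.66 for Fos, 0.48 for Dusp1 and 0.32 for Jun against -0.30 for Nr4a1, -0.23 for Atf3 and -0.18 for Klf6.

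**Figure D3:**
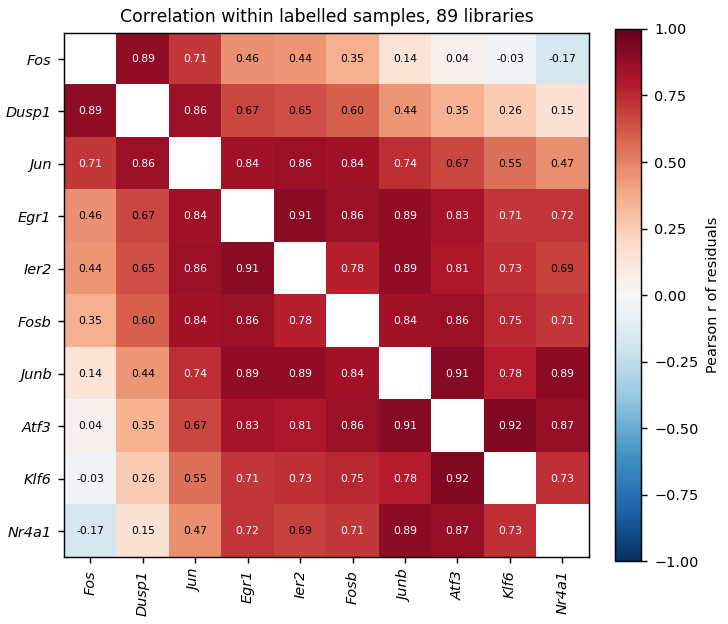
Pearson r between each pair of the 10 genes over 89 libraries, after the mean of each labelled sample was removed. The block from Egr1 to Nr4a1 has r from 0.69 to 0.92, and the values of Fos fall from 0.89 with Dusp1 to -0.17 with Nr4a1.

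**Figure D4:**
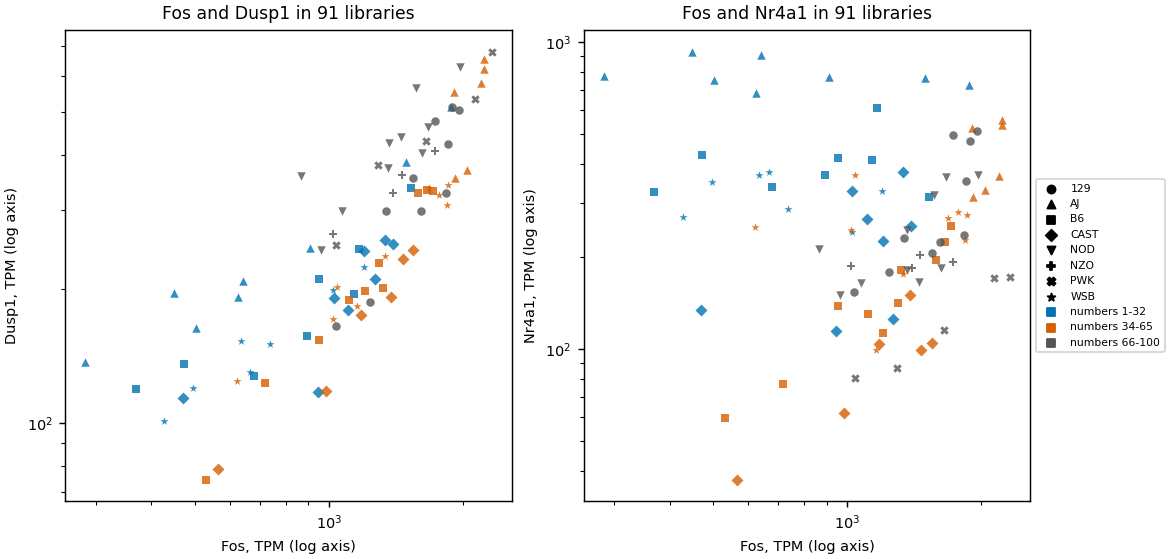
TPM of Dusp1 (left) and Nr4a1 (right) against TPM of Fos in the 91 libraries, both axes log, with strains as symbols and number ranges as colours. Dusp1 rises with Fos in each number range, whereas the AJ, B6 and WSB libraries numbered 1 to 32 spread widely in Fos at high Nr4a1.

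Within single strains and number ranges the 10 genes formed 1 group in some and parted in others. These values rest on 6 to 10 libraries each and are given as a description. In 129 and NOD, both numbered 66 to 100, all 45 pairs were positive, with r of at least 0.83 and 0.74. These r use normalised counts, whose scaling differed from that of TPM in NOD. There the male minus female log2 difference of Fos was 0.39 by normalised counts and -0.16 by TPM. The part of scaling in these r was not tested. In the libraries numbered 34 to 65 all 45 pairs were positive in AJ, B6 and CAST and 36 in WSB. In those numbered 1 to 32 only 27 pairs were positive in AJ, 31 in B6, 35 in CAST and 29 in WSB. Klf6 showed the contrast most clearly. Its r with Fos was -0.73 in AJ, -0.68 in B6, -0.47 in CAST and -0.95 in WSB for numbers 1 to 32, and 0.59, 0.53, 0.67 and -0.25 for numbers 34 to 65. Dusp1 kept an r with Fos of at least 0.87 in all of these groups except AJ numbered 34 to 65, where it was 0.83. A test of the difference between ranges in these correlations was not run.

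**Figure D5:**
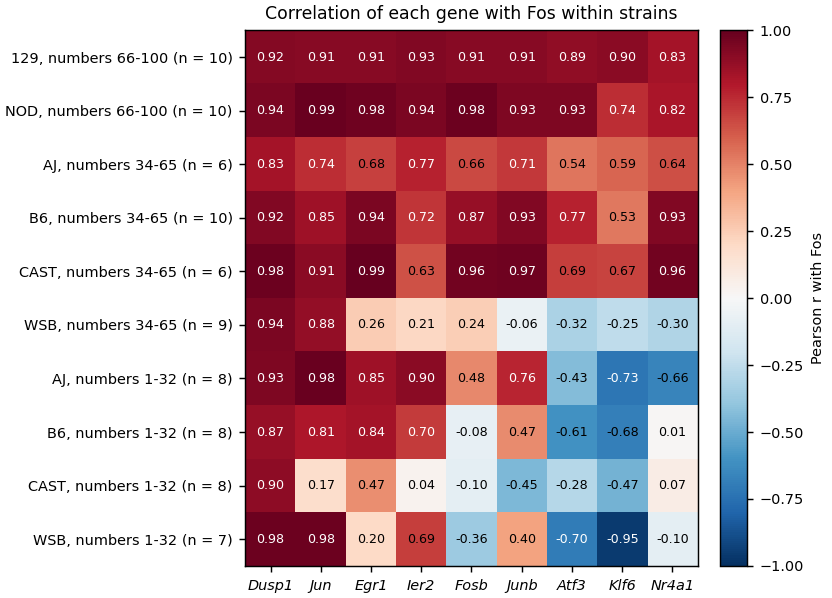
Pearson r of each gene with Fos (colour and printed value) within each strain and number range of at least 6 libraries, with n beside each. Dusp1 is between 0.83 and 0.98 throughout, and Klf6 and Atf3 are negative in the 4 groups numbered 1 to 32 and in WSB numbered 34 to 65.

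Other genes of the early response were counted from lists chosen with earlier results of these data known. Between number ranges the relatives of the 10 genes were mostly lower in 34 to 65, as Nr4a1 and Atf3 were. Of 10 other AP-1 family genes 6 were lower and 0 higher, of 18 other early transcription factors 14 were lower and 1 higher, of 18 feedback regulators 9 were lower and 1 higher, and of 18 early effector genes 14 were lower and 1 higher, against 15.6% and 28.8% of all genes. Their median log2 differences were -0.79, -0.83, -0.14 and -0.59, beside 0.045 over all genes. Of 11 islet inflammation genes 9 were lower and 1 higher, and of 9 genes of the integrated stress response 4 were lower and 2 higher. The heat shock genes were split, with 2 of 11 lower and 2 higher, and of 18 upstream regulators, such as SRF, CREB and MAP kinases, 5 were lower and 5 higher. Among strains all genes tested in these lists were called except 1 upstream regulator, as were 97.4% of all genes. Between the sexes, where 4.01% of all genes were called in either direction, 3 of the 18 feedback regulators and 1 of the 18 effector genes were higher in males, 1 of the 9 integrated stress genes was lower, 1 upstream regulator was higher and 2 were lower, and 0 of the genes in the other 4 lists were called.

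The relatives named here are drawn from the 5 of each list with the widest range of strain means, so wide ranges follow from the choice, and which of the 5 to describe was chosen after their values were seen. Egr4, a relative of Egr1, had 17.9 TPM ± 6.19 in AJ and 0.335 ± 0.108 in NZO. Arc, an activity-regulated gene known from neurons, had 58.8 ± 17.1 in AJ and 2.25 ± 0.839 in NZO, and Npas4, a calcium-induced factor, had 70.2 ± 27.4 in B6 and 7.45 ± 4.31 in NZO. NOD was highest for Batf (9.81 ± 10.6 TPM), Batf2 (4.995 ± 5.17 TPM), Nr4a3 (3.96 ± 2.09 TPM) and Egr3 (9.16 ± 6.06 TPM), and for Dusp2 (42.6 ± 47.5 TPM), Ptgs2 (15.7 ± 12.01 TPM) and Tnfaip3 (76.95 ± 49.3 TPM). Immune cells are known to use genes of this set as well, and NOD had the high immune-cell markers given above. Fosl2, Maff and Csrnp1 followed Atf3 and Junb in being highest in AJ (43.2 ± 28.7, 174 ± 89.8 and 195 ± 109 TPM) and lowest in 129 (8.04 ± 6.88, 36.1 ± 29.4 and 47.5 ± 49.5 TPM). The heat shock gene Hspa1b went the other way, with 74.0 ± 43.7 TPM in PWK and 12.5 ± 24.2 in AJ, and its copy Hspa1a had 84.1 ± 43.2 in NZO and 15.5 ± 23.3 in AJ. Hspa1a and Hspa1b are nearly identical, so their split is uncertain. All of these genes were called for strain, with edgeR adjusted p from 2.97e-35 for Ptgs2 to 0.00136 for Csrnp1.

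Among the other genes tested, those whose variation between libraries was most like the mean of the 10 genes were Socs3 (r = 0.91), C2cd4b (0.89), Btg2 (0.87), Irs2 (0.87) and Rhob (0.86), over 89 libraries with labelled-sample means removed. The median r over all genes was -0.033, and 2.11% of genes had an r above 0.5. The genes nearest to single members again separated Fos from Nr4a1. Rasd1 was nearest to both Fos (r = 0.84) and Dusp1 (0.81), whereas Csrnp1, Dusp5 and Midn were nearest to Nr4a1 (each r = 0.95) and Ppp1r15a, Krt8 and Elf3 to Atf3 (0.95, 0.93 and 0.93). Irs2 was nearest to Junb (0.95), Socs3 to Egr1 (0.92) and Jun (0.87), Zfp36 to Ier2 (0.89), Rhob to Klf6 (0.87) and Tuba1a to Fosb (0.88). These correlations share libraries, number ranges and scaling, and are given as a description.

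Levels of cell type markers were compared with the 10 genes last. Over the same 89 libraries the r of each gene with the summed acinar markers ran from -0.077 to 0.30, and with the beta-cell markers from -0.37 to 0.12. It was negative for all 10 genes with stellate (-0.48 to -0.087), macrophage (-0.46 to -0.10) and lymphocyte markers (-0.39 to -0.13). It was negative with neutrophil markers too (-0.46 to -0.18), but these were near the floor, with a median sum of 0.9 TPM over all libraries. With alpha-cell markers it was -0.55 for Klf6 and -0.45 for Atf3 but 0.20 for Fos. With the mitochondrial share it ran from -0.37 for Ier2 to 0.042 for Dusp1, and with total expected counts from -0.062 to 0.087. No marker was at 0 in every library. With acinar, lymphocyte and macrophage scores removed, the median SD of the 10 genes was 0.60 in place of 0.63 on the log2 scale, and the part of the other cell types was not tested.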

How the data were processed

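Whole-islet mRNA of 91 libraries from 8 mouse strains and both sexes was sequenced. The authors quantified the reads with RSEM (mm10, GENCODE vM18; the RSEM version is not given in the sources used here) and deposited, per gene, expected counts without normalisation between libraries. The TPM values deposited beside them are scaled by the authors to 1 sum per library. The deposited FPKM values were not used. Gene coordinates and biotypes came from GENCODE M21 (GRCm38), which matched 54079 of 54146 identifiers.

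Expected counts were rounded. Genes that are protein-coding and lie on an autosome (1 to 19) or X were kept, the lowest 10% of variance removed and non-zero counts required in at least 85% of libraries, which left 15152 genes. They were tested in edgeR 4.0.16 by quasi-likelihood (R 4.3.3, upper-quartile scaling, strain and sex as terms) and Benjamini-Hochberg adjustment over all genes tested, called at 0.05. Each file of a labelled sample was taken as 1 library. Total expected counts of 16928479 to 35196119 make a floor of 3 counts very small beside the levels reported, for counting error only. Correlations used Python 3.11.15 with numpy 2.4.6 and scipy 1.17.1, and figures matplotlib 3.10.9. The tests were first tested on simulated data.

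The 10 genes and all gene lists were chosen with earlier results of these data known. Genes outside the 10 are named where their mean is at least 1 TPM, up to 5 for each list by the widest range of strain means, and the 10 genes most like the mean of the 10 and 3 most like each are drawn on for likeness. Alternatives were TMM, median-ratio factors, other gene filters, limma-voom (limma 3.58.1), DESeq2 1.42.0, marker covariates, sums per labelled sample, other scales, and fits without some libraries. The fits of number range within each strain and of AJ, B6, CAST and WSB alone were chosen after seeing the data.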

Additional observations from a re-analysis of the deposited data

Results flagged for a closer look

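The difference between libraries numbered 34 to 65 and those numbered 1 to 32 was unequal between AJ, B6, CAST and WSB for 5 of the 10 genes, tested as an interaction with edgeR's quasi-likelihood method. The adjusted p was 0.0115 for Atf3, which had log2 differences from -2.01 in B6 to 0.11 in WSB. It was 0.0233 for Fosb, which was -0.82 in B6 and 0.60 in WSB. It was 0.0383 for Ier2, 0.043 for Nr4a1 and 0.0442 for Junb, and for Nr4a1 and Junb the difference was negative in all 4 strains and unequal in size. Atf3 (0.0445) and Ier2 (0.0485) were still called without the libraries that go against their sex label, and Fosb (0.109), Junb (0.0832) and Nr4a1 (0.111) were not. All 5 were called under TMM scaling. A screen for a single library far from the others in the strains with 4 to 10 libraries, 40 groups of 1 gene and 1 strain, found 0, where chance gives about 1 in 20.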

How the results depend on the processing

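Sums of the libraries per labelled sample left 5 of the 10 genes called for strain, 49 of the 280 tests of a gene in a pair of strains (75 by libraries, 103 with lymphocyte and macrophage scores as covariates), and 0 genes of all those tested for sex by edgeR, with 1201 at an unadjusted p under 0.05 (608 called by libraries). Leaving out in turn each NZO and each PWK library gave 8 to 9 genes called for strain, 74 to 76 calls in pairs, 0 to 0 for sex among the 10 genes, and over all genes 14734 to 14757 for strain, 560 to 609 for sex and 205333 to 210577 in pairs. For the interaction of strain and sex, DESeq2 called 2 of the 10 genes and 1169 of all genes. Without the 12 libraries against their sex label the interaction was called for 6 of the 10 genes and for 2686 of all genes (898 with them), sex was called for 1489 genes, and the number range differed unequally between strains for 2 of the 10 genes. Over all genes the interaction was called for 429 with limma-voom, 56 with acinar markers and 447 with macrophage and lymphocyte markers as covariates. Without the 12 libraries, adding the acinar markers left 4 of the 10 genes and 1552 of all genes, and adding the macrophage and lymphocyte markers left 0 of the 10 and 9 of all genes. The median SD between libraries (0.63) was 0.41 with number range means removed in AJ, B6, CAST and WSB, 0.13 in NZO alone and 0.43 in WSB alone. None of the number range differences or Pearson r called as reported changed its sign in any alternative run over the strains together, and rho was not compared in this way. Values not called as reported did, among them 5 differences between the sexes and the r of Fos with Nr4a1 (-0.17, at -0.34 and called without the 12 libraries, at 0.076 with number range means removed). Within single strains signs differed for called results too. The r of Fos with Fosb was -0.21 in AJ, and the number range difference of Atf3 was 0.11 in WSB. No paired analysis was possible because the labels give no replicate numbers that the groups share. Depth was not a limit for the 10 genes, the fewest expected counts being 608.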
